A study of Mus musculus with 12 samples.

Results

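The JAK kinases and STAT factors were taken as 9 genes: the kinases Jak1, Jak2, Jak3 and Tyk2, the transcription factors Stat3, Stat5a, Stat5b and Stat6, and the tyrosine phosphatase Ptpn6. They were found by gene symbol, as every spot whose annotation gave one of these names and no other. This gave 9 spots for 8 of the 9 genes, among 23040 spots on the array. No spot was named Stat5b in the annotation used here, and the Stat5a spot had no value on any array. Values were therefore present for 7 genes, and 4 of them (Jak3, Tyk2, Stat3 and Ptpn6) had a value on all 12 arrays. Jak1 had 10 values, Jak2 had 11 and Stat6 had 8, and a second spot of Ptpn6 had 6.

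The study measured total RNA of mouse samples against a commercial embryonic RNA as the reference, the first labelled with Cy3 and the second with Cy5, on arrays of spotted probes. The titles name a receptor form, WT (wild type) or NLS (the usual abbreviation of nuclear localization signal), in a series about the growth hormone receptor in the nucleus, and a 0 or 1 before GH (growth hormone). Crossing both gave 4 groups (NLS 0GH, WT 0GH, NLS 1GH, WT 1GH) of 3 arrays, and the arrays of each group carry the letters b, c and d. Every title also holds a 10 whose meaning is not given, and the treatment given for every sample includes human growth hormone (100 ng/ml), so 0GH and 1GH are not called untreated and treated here. The labels name no cell type, no promoter or clone behind the receptor forms, and do not say whether the letters are separate cultures, so p-values measure only the spread between these samples.

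JAK kinases sit on the inner side of cytokine receptors and are switched on when a ligand brings the receptor chains together. They phosphorylate the receptor and the STAT factors bound to it, which then pair, enter the nucleus and bind DNA. The growth hormone receptor works mainly through Jak2 and the closely related Stat5a and Stat5b. Ptpn6, also called SHP-1, is a phosphatase of blood cells that removes phosphate from JAKs and receptors. The arrays measured transcripts, and the phosphorylation by which the pathway is switched on is not seen in them.

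All values below are log2 ratios of sample over reference, minus the median of that array over 10760 features with a value on all 12 arrays, so that 0 is the middle of an array. Which channel was divided by the other is not stated. Of 52 measured genes of embryonic tissues, such as collagens and muscle proteins, 44 lay on the side of the embryonic reference if the deposited ratio is taken as embryonic RNA over sample, so all values were multiplied by -1. The opposite reading would turn every sign below, and with it the order and the percentiles of the ratios, and would leave the sizes of differences as they are. Between 15939 and 19700 spots had a value per array, and the number of arrays limits the precision. Of 10 genes of blood leukocytes in general, 9 lay above 0 (median 3.46, from -0.58 for Vav1 to 4.41 for Coro1a). Of 12 fibroblast genes 0 did, but 8 of them are among the embryonic genes that set the sign. The mean of the 9 leukocyte genes measured on all arrays spanned 1.78 to 3.47 in WT 0GH, 1.69 to 2.68 in WT 1GH, 2.20 to 2.86 in NLS 0GH and 2.04 to 3.41 in NLS 1GH, so the groups overlapped. The lists for single blood lineages were mixed, with 6 of 11 B lymphoid, 4 of 13 myeloid and mast cell, 4 of 10 T lymphoid and 4 of 8 erythroid and megakaryocyte genes above 0. The mean of the 4 erythroid and megakaryocyte genes measured on all arrays was lower in NLS than in WT without overlap at each GH number. It spanned 0.152 to 0.17 in NLS 0GH against 0.186 to 0.973 in WT 0GH, so these groups almost touched. At 1GH it spanned 0.06 to 0.22 in NLS against 0.53 to 0.75 in WT. The other lists overlapped between NLS and WT at both GH numbers. Among single features, 9.14% did not overlap between NLS and WT at 0GH and 8.72% at 1GH, in one direction or the other. No such share was counted for lists. The part of this mean in the receptor differences below was not tested.

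Of the 7 measured genes, 5 had a mean that lay above 0 by more than the SD of their arrays. Jak2 lay highest, with a mean of 3.47 and a median of 3.0 (SD 2.13 over 11 arrays), followed by Ptpn6 at 2.77 (SD 1.02 over 12), Jak1 at 1.96 (SD 0.79 over 10), Jak3 at 1.58 (SD 0.93 over 12) and Stat3 at 0.93 (SD 0.60 over 12). Tyk2 lay at 0.01 (SD 0.70 over 12) and Stat6 at -0.06 (SD 2.33 over 8). Within their SD, neighbours in this order overlapped. These are ratios to the embryonic RNA and not levels, so the order does not say which transcript was more abundant. Among all features the mean of Ptpn6 stood at percentile 98.9, Jak3 at 93.8, Stat3 at 83.0 and Tyk2 at 49.0, and with the sign turned they would stand at 1.09, 6.23, 17.0 and 51.0. Ptpn6 and Jak3 were above 0 on all 12 arrays, Stat3 on 11 and Tyk2 on 6. Jak1 was above 0 on all of its 10 arrays and Jak2 on all of its 11.

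**Figure D1:**
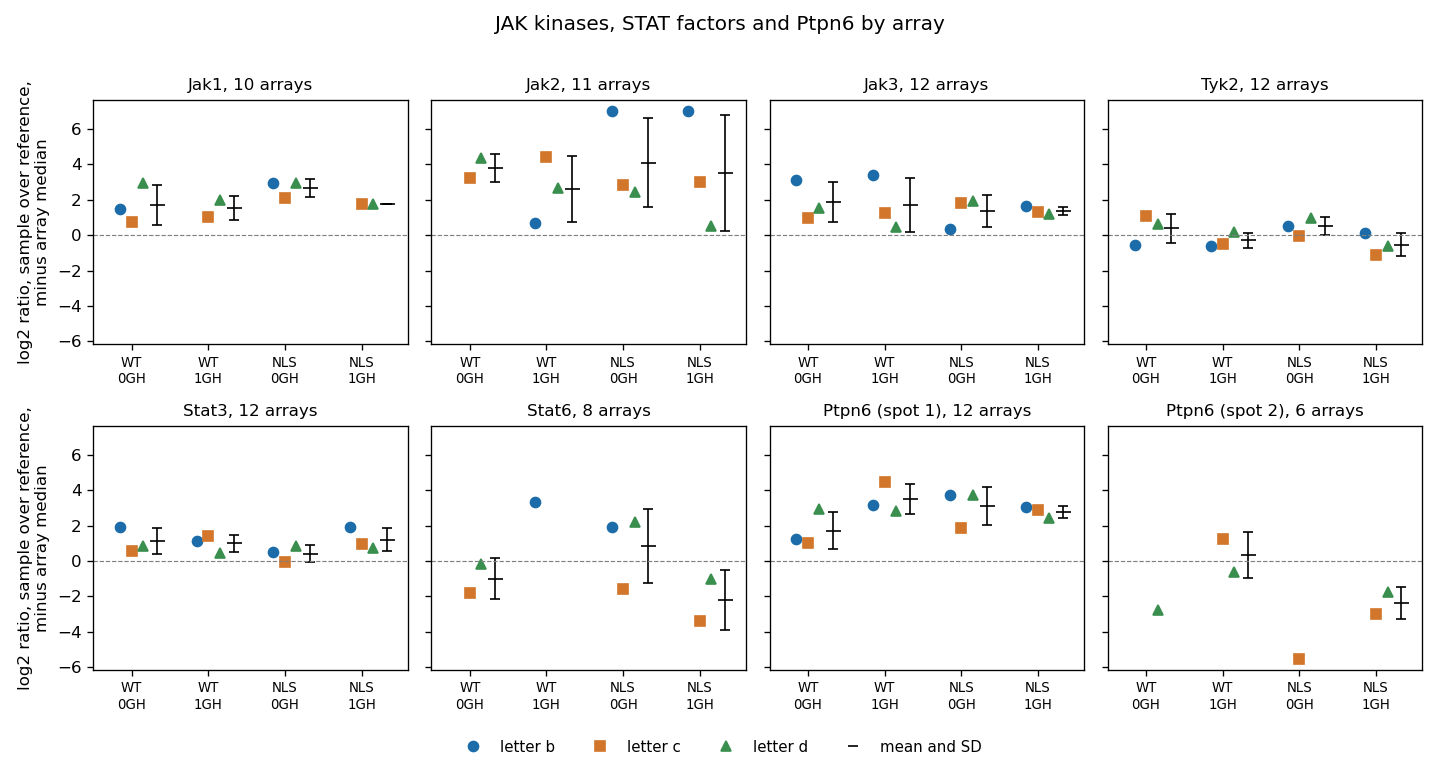
Log2 ratio of sample over reference minus the array median (vertical axis) for each spot with a value, in the 4 groups (horizontal axis), with a symbol per letter and the mean with its SD where a group has at least 2 values. The Ptpn6 spot with 12 values lies above 0 throughout, both NLS arrays of letter b reach 7.0 and 7.01 for Jak2, and the other Ptpn6 spot lies below 0 on 5 of 6 arrays.

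No gene of the set passed the threshold in any comparison between groups. The fit was limma on all 12 arrays, with Benjamini-Hochberg adjustment over all features and a threshold of 0.05. Of the 4 genes tested on the 10760 features, 0 passed in each of 7 comparisons, and so did 0 (0%) of all features. At an unadjusted p under 0.05 there was 1 gene in 1GH minus 0GH with WT, where 2.69% of features reached it, and 1 in 1GH minus 0GH over both receptor forms, where 2.85% did. There was 0 in NLS minus WT at 0GH (4.6% of features), at 1GH (3.49%) and over both GH numbers (5.27%), in 1GH minus 0GH with NLS (2.92%) and in the interaction of receptor form and GH number (2.42%). Jak1 and Jak2, which lack values, were tested among 15113 features with at least 2 values in every group, where 0 of all features passed. Neither reached an unadjusted p under 0.05, against 5.21% of those features in NLS minus WT at 0GH, 3.5% at 1GH, 5.66% over both, 2.92% in 1GH minus 0GH with WT, 3.4% with NLS, 3.3% over both and 3.02% in the interaction. Stat6, with a single value in one group, is described with its own fit below. A p above the threshold does not show that the groups were alike, and the intervals below give the sizes these arrays leave possible.

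Jak2, the kinase that the growth hormone receptor uses, had the widest spread of the kinases. In WT 0GH it was 3.21 in letter c and 4.36 in d, with no value in b. In WT 1GH it was 0.69, 4.42 and 2.66 in b, c and d. In NLS 0GH it was 7.0, 2.86 and 2.44, and in NLS 1GH 7.01, 3.0 and 0.51. Both NLS arrays of letter b stood above every other array, and the WT 1GH array of that letter was among the lowest 2, so the groups overlapped. NLS minus WT at 1GH was 6.32 in letter b, -1.42 in c and -2.15 in d. The fitted difference was 0.91 (SE 1.79, 95% interval -3.14 to 4.97, adjusted p = 0.999) with all letters, and -1.79 without letter b. At 0GH the letters with both values gave -0.36 and -1.91. The fitted difference there was 0.31 (SE 2.0, 95% interval -4.22 to 4.85), and it was -1.14 without the NLS 0GH array of letter b and -0.44 with the letter as a block. It was also negative with letter b kept, at -0.40 after quantile normalization and -0.26 without the WT 0GH array of letter c, so the sign for Jak2 at 0GH was not settled. Between GH numbers, 1GH minus 0GH was -1.20 with WT (SE 2.0) and -0.60 with NLS (SE 1.79), and with NLS the letters gave 0.01, 0.14 and -1.93.

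Jak1, which serves interferon receptors and many interleukin receptors, was 1.46, 0.74 and 2.93 in letters b, c and d of WT 0GH. It was 2.97, 2.09 and 2.93 in NLS 0GH. At 1GH letter b had no value, and c and d gave 1.03 and 1.99 with WT and 1.75 and 1.74 with NLS. At 0GH each NLS array lay above the WT array of its letter, by 1.51, 1.35 and 0.01, although the WT array of letter d lay as high as the NLS arrays and the groups overlapped. The fitted NLS minus WT at 0GH was 0.96 (SE 0.65, 95% interval -0.55 to 2.46, adjusted p = 0.930), and it ranged from 0.47 to 1.57 over the alternatives tried. At 1GH it was 0.23 (SE 0.80), with 0.72 in letter c and -0.25 in d. With NLS, both 1GH values lay below all 3 values at 0GH, with 2 arrays against 3. For 7.3% of the features with all values, the 3 arrays of each group did not overlap in this comparison. No such share was counted for 2 arrays against 3. The fitted 1GH minus 0GH of Jak1 with NLS was -0.92 (SE 0.73, adjusted p = 1.0) and -0.48 after quantile normalization.

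Jak3, which signals with the common gamma chain of interleukin receptors in lymphoid cells, set letter b of WT apart. Its values in letters b, c and d were 3.13, 0.97 and 1.55 in WT 0GH and 3.42, 1.24 and 0.44 in WT 1GH. They were 0.33, 1.83 and 1.92 in NLS 0GH and 1.64, 1.30 and 1.18 in NLS 1GH. Both WT arrays of letter b were the highest of the 12, and all groups overlapped. NLS minus WT over both GH numbers was -2.29 in letter b, 0.46 in c and 0.55 in d. The fitted difference was -0.42 (SE 0.58, 95% interval -1.72 to 0.87, adjusted p = 0.949), and it was 0.51 without letter b and 0.03 after quantile normalization, so its sign was not settled. In letter b the high arrays were WT for Jak3 and NLS for Jak2. The mean of the leukocyte genes overlapped between WT and NLS, as given above. That of the 4 erythroid and megakaryocyte genes measured on all arrays did not at either GH number, and the part of neither mean was tested. Between GH numbers the fitted difference of Jak3 was -0.18 with WT (SE 0.82) and 0.01 with NLS (SE 0.82).

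Tyk2, the kinase of interferon and interleukin-12 family receptors, was lower at 1GH than at 0GH in all 6 pairs of a letter and a receptor form. Its values in letters b, c and d were -0.53, 1.06 and 0.65 in WT 0GH and -0.60, -0.47 and 0.17 in WT 1GH. They were 0.54, -0.03 and 0.98 in NLS 0GH and 0.14, -1.14 and -0.60 in NLS 1GH. The pairs differed by -0.06, -1.53 and -0.47 with WT and by -0.40, -1.11 and -1.58 with NLS, while the 0GH and 1GH arrays overlapped. The share of all features with all 6 pairs on one side was not counted. Over both receptor forms 1GH minus 0GH was -0.86 (SE 0.37, 95% interval -1.70 to -0.03), 1.82-fold lower, with an adjusted p of 1.0 from limma (unadjusted p = 0.0440). With the letter as a block the unadjusted p was 0.0520, and it was under 0.05 in 7 of 21 alternative limma fits. NLS minus WT over both GH numbers was -0.06 (SE 0.37, 95% interval -0.90 to 0.77), with 0.91, -0.88 and -0.22 in the letters.

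Stat3, the STAT factor of interleukin-6 family and many other receptors, had the smallest spread of the 7 genes. Its values in letters b, c and d were 1.94, 0.57 and 0.85 in WT 0GH and 1.14, 1.39 and 0.43 in WT 1GH. They were 0.51, -0.09 and 0.83 in NLS 0GH and 1.92, 0.97 and 0.73 in NLS 1GH. At 0GH each NLS array lay below the WT array of its letter, by 1.42, 0.65 and 0.02 in size, and the groups overlapped. The fitted NLS minus WT was -0.70 at 0GH (SE 0.51, 95% interval -1.84 to 0.44, adjusted p = 0.959) and 0.22 at 1GH (SE 0.51, 95% interval -0.92 to 1.36). The difference between both, the interaction, was 0.92 (SE 0.72, adjusted p = 1.0) and 0.28 without letter b. With NLS 1GH minus 0GH was 0.79 (SE 0.51), made of 1.41, 1.05 and -0.10 in the letters, and with WT it was -0.13 (SE 0.51).

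Stat6, the factor downstream of the interleukin-4 receptor, had values on 8 arrays only. It was -1.82 and -0.17 in letters c and d of WT 0GH, 3.35 in letter b of WT 1GH, 1.92, -1.58 and 2.20 in NLS 0GH, and -3.39 and -1.01 in letters c and d of NLS 1GH. All 3 values of letter c were low and both of letter b were high. With NLS, letters c and d gave 1GH minus 0GH of -1.80 and -3.21. At 0GH they gave NLS minus WT of 0.24 and 2.37. A limma fit of the 17317 features with at least 1 value in every group, added after the values were seen, called 0 (0%) of all features in any comparison. NLS minus WT was 1.84 at 0GH (SE 1.44, 95% interval -1.69 to 5.38, adjusted p = 0.920), and 1GH minus 0GH with NLS was -3.04 (SE 1.44, 95% interval -6.58 to 0.49, adjusted p = 1.0). The comparisons with WT 1GH rest on its 1 array, of letter b, which was assumed to vary like the others and was set against NLS 1GH arrays of letters c and d. There NLS minus WT at 1GH was -5.55 (SE 1.94, adjusted p = 1.0) and the interaction -7.40 (SE 2.42, adjusted p = 1.0). Both had an unadjusted p under 0.05, as did 4.04% and 3.88% of features, and for these the array and letter cannot be told apart from the group. In the other comparisons the unadjusted p of Stat6 was not under 0.05, as it was for 5.8% of features in NLS minus WT at 0GH, 6.08% over both GH numbers, 3.58% in 1GH minus 0GH with WT, 4.12% with NLS and 3.92% over both receptor forms.

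Ptpn6, the phosphatase, had the widest difference by GH number in WT among the 4 genes measured on all arrays. On its spot with 12 values it was 1.22, 0.99 and 2.91 in letters b, c and d of WT 0GH and 3.16, 4.45 and 2.84 in WT 1GH. It was 3.73, 1.86 and 3.72 in NLS 0GH and 3.07, 2.88 and 2.40 in NLS 1GH. Letters b and c of WT 0GH were among the lowest 3 arrays, while letter d of WT 0GH lay within the range of WT 1GH, so these groups overlapped. In WT, 1GH minus 0GH was 1.77 (SE 0.70, 95% interval 0.22 to 3.33), 3.42-fold higher, with 1.94, 3.46 and -0.07 in the letters. The adjusted p from limma was 1.0 and the unadjusted p 0.0295. Without letter d the difference was 2.70 and without letter c 0.93. With NLS it was -0.32 (SE 0.70, 95% interval -1.88 to 1.24). The highest value, 4.45, came from the WT 1GH array of letter c. The labels give that array 19.2 bases per green dye, the dye of the sample, and the other arrays 12.8 to 16. The part of this in the Ptpn6 differences was not tested.

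The receptor difference of Ptpn6 had opposite signs at the 2 GH numbers in every letter, and the share of all features with this pattern was not counted. NLS minus WT was 2.51, 0.87 and 0.81 in letters b, c and d at 0GH, and -0.09, -1.57 and -0.44 at 1GH. The fitted values were 1.40 at 0GH (SE 0.70, 95% interval -0.16 to 2.95, adjusted p = 0.951) and -0.70 at 1GH (SE 0.70, 95% interval -2.26 to 0.86, adjusted p = 0.999). Without the WT 1GH array of letter c the value at 1GH was -0.22. The interaction was -2.09 (SE 0.99, 95% interval -4.30 to 0.11) and did not pass, with an adjusted p of 1.0 and an unadjusted p of 0.0603. Over both GH numbers the receptor difference was 0.35 (SE 0.49). The leukocyte genes, with the ranges given above, overlapped between all 4 groups. The mean of the 4 erythroid and megakaryocyte genes measured on all arrays was lower in NLS at both GH numbers. The part of either list in the Ptpn6 differences was not tested.

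The other Ptpn6 spot went against this one in its side of the reference. It had no value in letter b, and its 6 values were -2.76 in WT 0GH d, 1.25 and -0.61 in WT 1GH c and d, -5.52 in NLS 0GH c, and -3.0 and -1.74 in NLS 1GH c and d. It lay below the array median on 5 of 6 arrays, where the spot with 12 values lay above it on all. At 1GH its NLS minus WT was -4.25 in letter c and -1.13 in d, the sign of the other spot. Its 1GH minus 0GH was 2.15 in WT letter d, where the other spot gave -0.07, and 2.52 in NLS letter c, where the other spot gave 1.02. Only the spot with 12 values entered the fit, and which of them reports the transcript cannot be told from the table.

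**Figure D2:**
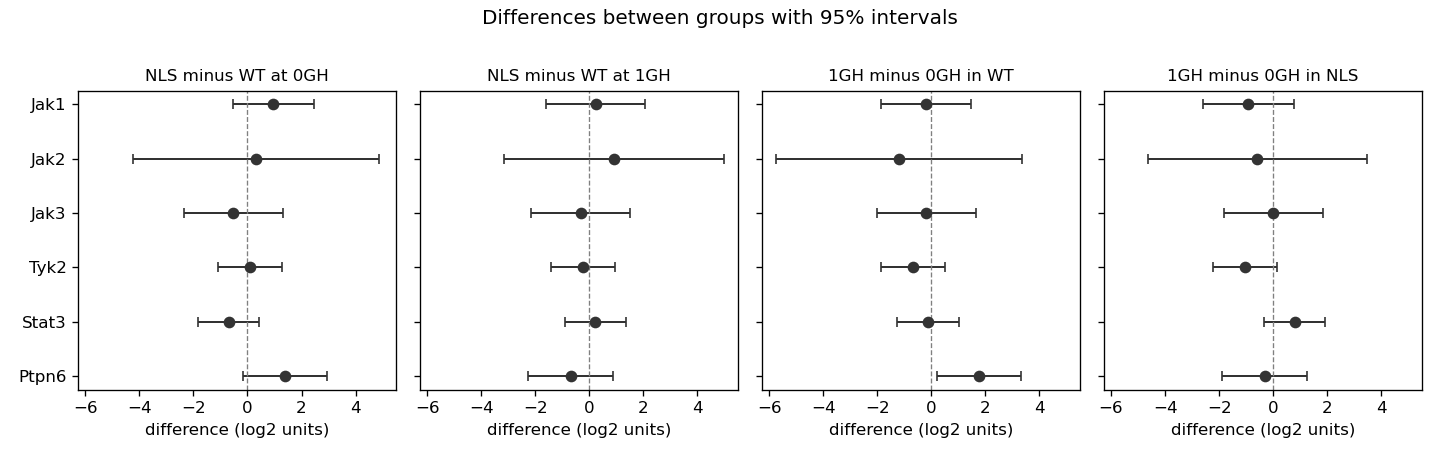
Fitted difference between groups in log2 units (horizontal axis) with its 95% interval for the 6 genes tested (vertical axis), in the 4 comparisons between single groups. The interval of Ptpn6 in 1GH minus 0GH with WT, 0.22 to 3.33, lies above 0, and every other interval crosses 0.

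The replicate letters were compared in a limma fit with the letter and the group as factors, since the labels give every array of a letter 1 common value of red dye incorporation. None of the 6 tested genes differed between letters past the threshold (adjusted p from 0.482 for Stat3 to 0.900 for Ptpn6), nor did 0 (0%) of all features. At an unadjusted p under 0.05 there were 0 of the 4 genes with all values, against 17.5% of 10760 features, and neither Jak1 nor Jak2, against 16.7% of 15061. Without centring, Tyk2 (unadjusted p = 0.0162, limma) and Stat3 (unadjusted p = 0.0105, limma) reached it, while Jak3 and Ptpn6 did not. So did 4712 of the 10760 features, so reaching it did not set Tyk2 and Stat3 apart from features in general. Of the spread over 12 arrays, the letter held 30.4% for Stat3, 19.3% for Jak3, 9.2% for Tyk2 and 3.2% for Ptpn6, beside a median of 24.8% over all features. The GH number held 41.4% for Tyk2, 13.9% for Ptpn6, 8.3% for Stat3 and 0.24% for Jak3 (median 3.92%). The receptor form held between 0.23% for Tyk2 and 5.64% for Jak3 (median 5.49%). The interaction held 28.7% for Ptpn6 and 16.3% for Stat3 (median 4.35%). The rest, which none of these factors holds, was the largest share for each gene, at 74.6% for Jak3, 51.0% for Ptpn6, 47.6% for Tyk2 and 40.6% for Stat3 (median 46.0%). The rest has more degrees of freedom than the letter, and the letter more than each other factor. A share can therefore be set beside its own median over all features, and not beside the share of another factor.

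**Figure D3:**
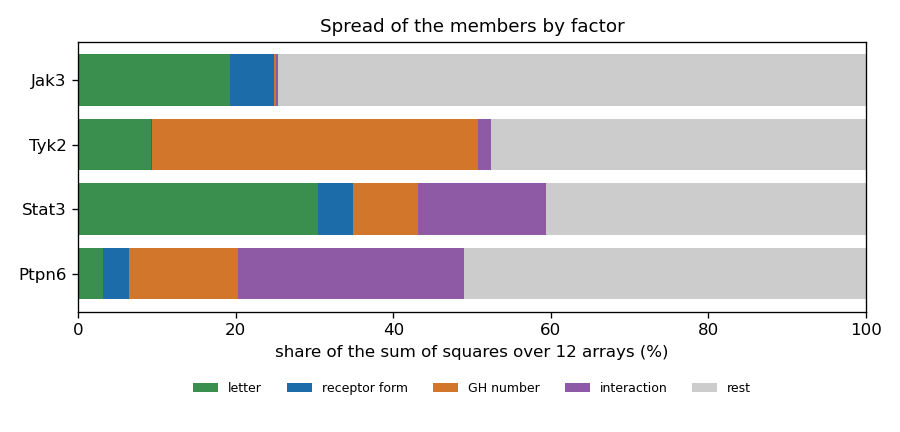
Share of the sum of squares over 12 arrays (horizontal axis, percent) that goes with the letter, the receptor form, the GH number, their interaction and the rest, for the 4 genes with a value on all arrays (vertical axis). The GH number takes 41.4% for Tyk2, the interaction 28.7% for Ptpn6, and the rest 74.6% for Jak3.

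Groups that do not overlap were looked for as a description. For the 4 genes with all values, 0 separated NLS from WT at 0GH (9.14% of features did), at 1GH (8.72%) or over both GH numbers (0.725%). Likewise 0 separated 1GH from 0GH with WT (5.65%), with NLS (7.3%) or over both receptor forms (0.112%).

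The STAT factors outside the set that had spots were Stat2 and Stat4, with values on 11 arrays each. Stat4, the factor of the interleukin-12 receptor, was 0.48, -1.42 and 0.51 in letters b, c and d of WT 0GH and 3.39, 3.39 and 3.55 in NLS 0GH. At 1GH it was 3.72 and 1.25 in letters b and c of WT and 0.29, 3.17 and 4.54 in NLS. The NLS arrays lay above the WT arrays at 0GH without overlap, and at 1GH they overlapped. Among features with a value on every array, 9.14% did not overlap between NLS and WT at 0GH, in either direction. Stat4, with 11 values, is not among those features, and it was added after its values were seen. NLS minus WT was 3.59 at 0GH (SE 1.11, 95% interval 1.08 to 6.09) with an adjusted p of 0.927 from limma, so it did not pass. At 1GH it was 0.19 (SE 1.24), and the interaction was -3.40 (SE 1.66, adjusted p = 1.0). Stat2, a factor of interferon signalling, was at 0.52 (SE 1.11) and -0.75 (SE 1.0) in the same comparisons.

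Other genes of the pathway were counted by role, over those measured on all arrays. These were 15 of 30 cytokine receptors, 4 of 8 partners of STAT factors, 8 of 15 feedback and other inhibitors, 2 of 6 further phosphatases, 16 of 22 adaptors and parallel kinases, and 11 of 20 STAT target genes. In all 7 comparisons 0 of them passed in either direction. For NLS minus WT over both GH numbers the median was -0.24 for the receptors, 0.02 for the partners, -0.10 for the inhibitors, 0.72 for the phosphatases, 0.10 for the adaptors and 0.34 for the targets, beside -0.03 over all features and -0.15 for the 4 genes of the set. For 1GH minus 0GH over both receptor forms it was -0.03, -0.34, -0.04, 0.51, -0.31 and 0.09 in the same order, beside -0.01 over all features and 0.12 for the 4 genes.

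The genes below had the smallest p of their list and direction in a comparison over both GH numbers or both receptor forms, and are given as values, since none passed. Among receptors, Ghr, the growth hormone receptor, was at 1.05 (SE 0.60) for NLS minus WT over both GH numbers. Of the 15 receptors, 4 lay above 0 there. Il10rb, a chain of the interleukin-10 receptor, was at -1.72 (SE 0.55) for 1GH minus 0GH over both forms. Among kinases, Btk, a kinase of B cell receptor signalling, was at -2.66 (SE 0.68) in that comparison. Among phosphatases, Dusp6, which acts on ERK, was at 1.15 (SE 0.42) for NLS minus WT over both GH numbers. Among targets, Ccnd3, a D cyclin, was at -1.10 (SE 0.33) and Junb, an AP-1 factor, at 2.47 (SE 0.81) there. Among inhibitors, Pias1 was at 1.30 (SE 0.64) and Socs2 at -0.74 (SE 0.54) there too. Adjusted p-values from limma for these genes were 0.837 or higher.

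STAT factors bind palindromes of TTC and GAA, most often with 3 bases between them, or 4 for Stat6. RefSeq promoters of build GRCm38.p6, from 250 bases before to 50 bases after the start, were found for all 9 genes of the set. TTCNNNGAA, its own reverse complement and so read on both strands, was in 0 of the 9 genes, against 9.55% of 27025 genes and 8.3% of their 32851 promoters. TTCNNNNGAA was in 0 of the 9, against 8.01% of genes and 6.95% of promoters. With 5 bases between, a spacing searched only after the Ptpn6 promoter had been seen, TTCNNNNNGAA was in 1 of the 9, Ptpn6, against 8.24% of genes and 7.22% of promoters. This stretch is shown because Ptpn6 had the widest difference by GH number in WT among the 4 genes measured on all arrays. The 51 bases shown lie at chr6:124738787-124738837 on the minus strand. Both arms and the bases between them are in capitals, which begin 108 bases before the start:
Ptpn6: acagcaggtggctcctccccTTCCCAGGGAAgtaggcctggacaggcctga
The match is a description of these letters and not a binding site, and the windows without a match say nothing about STAT binding elsewhere.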

How the data were processed

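The authors deposited 1 table of log2 ratios between the channels of 12 arrays. The base is inferred from values between -14.6 and 18.2. Per the series' design text a Lowess fit with 50% of the data at each point adjusted the control channel, and control channel values below 200 were raised to 200. The sources used here do not give the background method or the numerator. Of 23040 spots, 906 with control-type identifiers were left out. Of the others, 16720 had 1 gene symbol in the platform annotation, 142 several and 5272 none, and 16014 matched a RefSeq gene by Entrez identifier. Spots with a value on all arrays (11243) were averaged per gene to 10760 features. Deposited array medians ran from -1.22 to 0.911, so each array was centred on its median before the fit, and a printed difference and its p-value are of the same quantity.

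Tests used limma 3.58.1 (lmFit, eBayes) in R 4.3.3, two-sided, and were tested on simulated data first. Intervals are 95% intervals of that fit. The genes of the set, the lists and the rule for named genes (the set, the gene of smallest p per list and direction, and the genes most like a member) were chosen with earlier results of these data known, and Stat2 and Stat4 were added as the other STAT spots after their values were seen. Letters were taken to pair the arrays in the differences within a letter and in the alternative with the letter as a block. The main fit, which gave the intervals and, unless a block is named, the p-values between groups, held no term for the letter. The pairing was taken because the labels give 1 red dye incorporation per letter (bp per dye molecule: 19.3 in b, 19.8 in c, 17.9 in d). Same-letter arrays had deviations from group means that correlated at 0.0433 to 0.264, and arrays of other letters at -0.187 to 0.066. Deviations cancel within a group, so higher values for the same letter bring lower ones for other letters. The contrast is thus partly built in. Alternatives were the letter as a block, quantile normalization, no centring, single spots, features with 2 or more values in every group, a robust prior, and each array or letter left out. A fit of features with at least 1 value per group was added for Stat6 after the data were seen.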

Additional observations from a re-analysis of the deposited data

Results flagged for a closer look

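The NLS minus WT difference of Ptpn6 had one sign in all 3 letters at 0GH and the other sign in all 3 at 1GH. The test of this difference, the interaction, was -2.09 (SE 0.99), with an adjusted p of 1.0 from limma, and it ranged from -2.72 to -1.51 over the alternatives tried. In size the NLS minus WT difference was smallest in letter b at 1GH, at -0.09. The share of all features with this pattern of signs was not counted. The other Ptpn6 spot had no letter with both values at 0GH.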

How the results depend on the processing

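The count of features past the adjusted threshold was 0 in each of the 7 comparisons between groups under every alternative run, by limma in each case. With the letter as a replicate block and centring it stayed at 0, while features at an unadjusted p under 0.05 went from 495 to 751 for NLS minus WT at 0GH, from 567 to 855 over both GH numbers and from 260 to 399 for the interaction. The block changed no call of the genes described. For the difference among letters, 1632 features passed without centring against 0 with it. These settings differ only by the median taken off each array, the same for all its features. Why the medians differed between arrays was not tested. Over the 6 genes and 7 comparisons, 42 differences were recomputed as 854 values. Some of these values could not change. The robust prior left every difference as it was, and so did the letter block for genes with a value on every array. Leaving out an array of a group outside the comparison did the same. Counts out of 854 therefore understate how often a difference that could change did so. Of the 854 values, 0 passed, 86 had the other sign and 5 moved by more than the residual SD. These 5 were the Jak1 interaction without centring (0.16), Jak3 NLS minus WT at 0GH (0.62), Jak2 NLS minus WT at 1GH (-1.79) and the Stat3 interaction (0.28) without letter b, and Ptpn6 1GH minus 0GH in WT (2.70) without letter d. Tyk2 1GH minus 0GH over both forms kept its sign, from -1.18 to -0.63, with an unadjusted p under 0.05 in 7 of 21 alternative limma fits. Where an array was left out, the group with fewer arrays was assumed to vary like the others. Signal over background is not in the table, so dim spots could not be set apart. No value was held for Stat5a or Stat5b, and the fit of Stat6 rests on 8 values.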

Other observations

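Among 8706 other named genes, those most like each gene over the 12 centred values were Tmod4 (Pearson r = 0.916) and Gfpt2 (0.912) for Jak3, Srf (0.87) and Gfer (0.841) for Tyk2, Plekhh1 (0.911) and Epha2 (0.891) for Stat3, and Dpep3 (0.827) and 2810013P06Rik (0.821) for Ptpn6. These are the highest of many values over few arrays that share letters and a reference, and are given as a description only.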
